A study of Mus musculus with 15 samples.

Results

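The cadherin superfamily was followed through RNA sequencing of NMuMG cells, an immortalised epithelial line from mouse mammary gland. Members were taken by gene symbol and by no measured value: the Cdh and Cdhr genes, the protocadherins (every symbol beginning Pcdh), the desmosomal Dsg and Dsc genes, and the Celsr and Fat genes. The rule found 75 of the 15701 genes listed in either of 2 datasets, 57 in the first, 73 in the second and 55 in both. By class there were 4 classical type I cadherins, 6 type II cadherins, 6 other cadherins, 2 desmosomal cadherins, 3 Celsr genes, 4 Fat genes, 8 protocadherins outside the clusters, and 3 alpha, 18 beta and 21 gamma protocadherins of the clusters, so that 47 of the 75 lie on chromosome 18.

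The second dataset compared NMuMG control cells (2 libraries, unaltered by their labels and called scrambled-shRNA cells by the study) with shPCBP1 cells (2 libraries), in which a lentiviral short hairpin RNA depletes the RNA-binding protein PCBP1. In the first dataset every line, the controls included, carried that same PCBP1 knockdown. It held 4 shPCBP1 lines (the unaltered line and CT clones 1, 2 and 3, which received Cas9 without a gene-specific guide), 3 FAM3C KO clones lacking the secreted cytokine-like protein FAM3C, 3 LIFR KO clones lacking the leukemia inhibitory factor receptor, and 1 double KO line lacking both. Each KO line is a clone grown from a single colony, with 1 library each, and the replicates of the second dataset are not said to be separate cultures, so p-values there measure only the spread between these libraries.

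Cadherins are calcium-dependent adhesion receptors. Classical cadherins such as E-cadherin (Cdh1) and N-cadherin (Cdh2) bind the same kind of molecule on the neighbouring cell and hold actin through beta-, alpha- and p120-catenin at the adherens junction, while desmogleins hold keratin filaments at the desmosome. Protocadherins lack the catenin-binding tail. The alpha, beta and gamma protocadherins are encoded in tandem, and each alpha or gamma transcript joins its own variable exon to constant exons that its cluster shares. Celsr genes encode large multi-pass cadherins of planar cell polarity, and Fat genes encode giant cadherins related to the Drosophila tumour suppressor fat. A fall of E-cadherin with a gain of N-cadherin is the textbook mark of epithelial-mesenchymal transition in mammary epithelium.

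All values are CPM (counts of a gene scaled to the size of its library) as deposited. The datasets were normalised separately, so no level was compared between them. The smallest step between values implied totals of 16031859 to 46901675 reads per library in the first dataset and 53031929 to 56495731 in the second. PCBP1 itself checked the labels of the second dataset, at 287 and 312 CPM in the control libraries and 14.1 and 14.2 CPM in the shPCBP1 libraries. Fam3c transcript stood at 26.4, 33.9 and 42.9 CPM in FAM3C KO clones 1, 2 and 3, below the 47.0 to 59.4 CPM of the shPCBP1 lines. Lifr stood at 34.9, 29.3 and 14.6 CPM in LIFR KO clones 1, 2 and 3 against 25.8 to 40.2 CPM, so the transcript level does not check the labels of LIFR KO clones 1 and 2. The keratins Krt8 and Krt18 of the labelled epithelium were present throughout. Of 10 epithelial markers 6 were listed in each dataset, and Epcam, Cldn3 and Esrp1 were listed in neither. The summed level was 960 to 2886 CPM in the first dataset and 2627 to 2770 CPM in the second. Summed neural markers ran from 6.03 to 36.0 CPM and immune markers from 7.05 to 14.1 CPM in the first dataset. Summed fibroblast markers reached at most 5.53 CPM and endothelial markers at most 1.37 CPM in the 15 libraries. In bulk RNA, fewer cells of a type and less RNA per cell cannot be told apart.

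The promoters of 3 members, chosen after their values were seen, are shown because Celsr2 and Pcdh10 had the deepest falls and Pcdh17 was the member that moved in all comparisons with shPCBP1 lines. Each is the 250 bases before the RefSeq transcription start in build GRCm38.p6, read 5′ to 3′ on the gene's own strand in lower case, with the E-box CAGGTG (searched on both strands, CACCTG on the other), the core that Snail and Zeb repressors bind in the Cdh1 promoter, in capitals.
Celsr2 (chr3:108415580-108415829, minus strand): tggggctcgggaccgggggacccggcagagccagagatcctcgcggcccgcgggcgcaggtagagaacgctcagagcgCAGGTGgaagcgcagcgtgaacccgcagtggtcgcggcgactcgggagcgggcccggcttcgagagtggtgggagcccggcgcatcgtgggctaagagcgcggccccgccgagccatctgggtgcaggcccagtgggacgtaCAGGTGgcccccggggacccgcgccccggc
Pcdh10 (chr3:45378148-45378397, plus strand): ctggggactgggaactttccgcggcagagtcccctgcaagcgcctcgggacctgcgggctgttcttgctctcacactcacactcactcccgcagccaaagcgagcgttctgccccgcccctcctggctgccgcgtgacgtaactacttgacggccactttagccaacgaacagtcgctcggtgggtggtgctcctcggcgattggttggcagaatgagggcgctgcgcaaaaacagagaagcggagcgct
Pcdh17 (chr14:84443313-84443562, plus strand): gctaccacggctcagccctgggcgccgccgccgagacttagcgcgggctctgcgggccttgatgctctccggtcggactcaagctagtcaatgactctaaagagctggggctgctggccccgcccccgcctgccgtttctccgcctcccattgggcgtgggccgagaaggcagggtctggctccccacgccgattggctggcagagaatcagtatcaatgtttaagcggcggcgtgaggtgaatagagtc
The Celsr2 window held 2 E-boxes, and those of Pcdh10 and Pcdh17 held none. Of all 32851 RefSeq windows, 17.22% held at least 1, as did 3 of the 19 members with a window. The windows held 32, 22 and 21 CpG dinucleotides for Celsr2, Pcdh10 and Pcdh17 against a median of 6, and 4.584%, 14.821% and 16.347% of windows respectively held at least as many. These matches describe the letters only, and no binding or methylation was measured here.

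The comparison of shPCBP1 with NMuMG control cells asked how loss of PCBP1 changed the cells. Nearly every cadherin-superfamily gene that could be tested differed. E-cadherin fell 1.57-fold and N-cadherin rose 2.68-fold, while the protocadherin Pcdh10, the polarity cadherin Celsr2 and the kidney-type cadherin Cdh16 fell by far more, 86.7-fold, 64.2-fold and 25.7-fold by the ratio of mean CPM. The protocadherins Pcdh1, Pcdh7, Pcdh9 and Pcdh17 and the gamma protocadherin Pcdhgc3 rose. Of 25 members tested, 18 rose and 6 fell at an adjusted p under 0.07, the threshold of the study. In the same limma fit 80.1% of all 11384 genes tested passed, 42.1% higher and 38.0% lower, so a count of passing members says little by itself. With a further requirement of a 1.5-fold change, 14 members rose and 6 fell, 80.0% of those tested, where 31.1% of all genes did (16.0% higher, 15.1% lower). The median member was 1.00 higher on the log2 scale and the median gene 0.02 higher. The other 48 of the 73 listed members did not reach the filter of a mean of 0.5 CPM and were not tested. The filter bears on the count and on the median of the members. Of the risers, 7 (Pcdh9, Pcdh17, Pcdhb17, Pcdhb22, Pcdhga4, Pcdhgb2 and Pcdhgb6) had a control mean under 0.5 CPM. Of the fallers 2, Celsr2 and Pcdhgc4, had a shPCBP1 mean under it. All of these passed the filter through 1 group only. Among the 16 members at 1 CPM or more in both control libraries, 9 rose, 6 fell and Cdh24 did not pass. These 16 were selected on the control group alone, and the share of all genes under the same selection is not given here.

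Cdh1 (chr8:106603351-106670246, plus strand) was listed at 231.7 and 236.9 CPM in the control libraries and 148.6 and 149.0 CPM in the shPCBP1 libraries. The groups did not overlap, and the difference was -0.65 on the log2 scale (SE 0.02, adjusted p = 4.5e-10). Cdh2 stood at 21.59 and 21.76 CPM in control cells and at 58.08 and 58.26 CPM in shPCBP1 cells, a log2 difference of 1.42 (SE 0.03, adjusted p = 2.9e-11). The spread within each pair of libraries was small beside both differences. Per kilobase of transcript, the Cdh1 level was 18.9 and 19.2 times that of Cdh2 in the control libraries and 4.51 times in each shPCBP1 library. Cdh1 remained the highest member per length in both groups, at 51.2 CPM per kilobase in control cells and 32.5 CPM per kilobase in shPCBP1 cells.

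Among type II cadherins, Cdh6 (K-cadherin, known from kidney development) measured 129.9 and 125.3 CPM in control cells and 173.6 and 177.2 CPM in shPCBP1 cells, higher by 0.46 on the log2 scale (SE 0.03, adjusted p = 2.4e-08). Cdh24, at 2.09 and 2.77 CPM against 2.08 and 1.90 CPM, did not pass (log2 difference -0.26, SE 0.15, adjusted p = 0.125), although it did without control replicate 1 (-0.46, adjusted p = 0.0136). Cdh3 (P-cadherin) was listed at 0.0359 CPM or less, Cdh11 was not in this dataset, and Cdh5, the endothelial cadherin, did not exceed 0.222 CPM.

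The other cadherins, which lack the catenin-binding tail, were lower in sum, at 139.8 and 137.1 CPM in control and 38.6 and 36.5 CPM in shPCBP1 cells. Most of that was Cdh16 (kidney-specific cadherin), at 75.3 and 73.2 CPM in control cells and 2.81 and 2.96 CPM in shPCBP1 cells. Its log2 difference was -4.64 (SE 0.05, adjusted p = 2.5e-13). Cdh17, the liver-intestine cadherin, went from 62.71 and 62.45 CPM to 33.89 and 31.76 CPM, a log2 difference of -0.93. Both were well separated between the groups. Cdhr2, a protocadherin of the intestinal brush border, was listed at 1.098 and 0.792 CPM in control cells and 0.0180 and 0.0186 CPM, the worth of 1 read, in shPCBP1 cells, but its mean over the dataset was below the filter and it was not tested. Cdh13, the cadherin held by a lipid anchor in place of a transmembrane tail, moved the other way, from 0.602 and 0.604 CPM to 1.56 and 1.40 CPM (log2 difference 1.17, SE 0.15).

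Celsr1 and Celsr2 moved in opposite directions. Celsr2 (chr3:108390851-108415552, minus strand) measured 22.1 and 23.1 CPM in control cells and 0.502 and 0.203 CPM in shPCBP1 cells, a log2 difference of -5.73 (SE 0.24, adjusted p = 2.5e-09). The shPCBP1 libraries differed from each other by 0.99 on the log2 scale, the widest gap of any tested member within that group, and still lay far below both controls. Celsr1 was 79.8 and 81.8 CPM in control cells and 90.3 and 95.0 CPM in shPCBP1 cells (log2 difference 0.20). Of the Fat genes, Fat1, the most abundant member by CPM, rose from 378.2 and 388.8 CPM to 467.6 and 473.1 CPM, by 0.29 on the log2 scale. Fat2, best known from cerebellar granule cells, rose from 1.42 and 1.21 CPM to 10.8 and 9.31 CPM, by 2.85 (SE 0.12, adjusted p = 2.2e-09). Fat4, a receptor for Dachsous in planar polarity, had no reads in the control libraries and 0.126 and 0.129 CPM in the shPCBP1 libraries, and Fat3 was listed at 0 in all 4.

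The desmosomal cadherins were represented by Dsg2, the desmoglein of simple epithelia, at 69.4 and 67.9 CPM in control cells and 88.1 and 88.3 CPM in shPCBP1 cells (log2 difference 0.36, SE 0.03, adjusted p = 2.3e-07). Dsg4, the desmoglein of the hair shaft, had no reads in the control libraries and 0.108 and 0.0740 CPM in the shPCBP1 libraries. Dsc2 was not listed in either dataset.

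**Figure D1:**
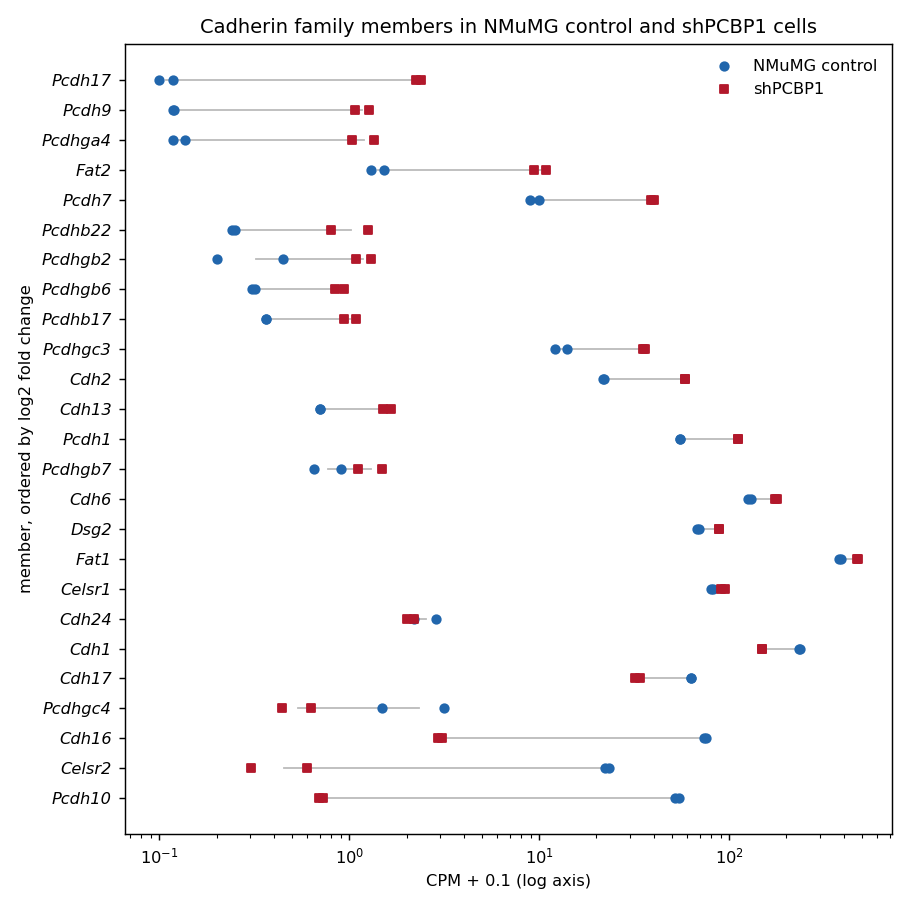
CPM + 0.1 on a log axis for the 25 tested members in the 2 NMuMG control libraries (circles) and the 2 shPCBP1 libraries (squares), ordered by log2 fold change, with a grey line joining the group means. Pcdh10, Celsr2 and Cdh16 lie at the falling end and Pcdh17, Pcdh9 and Pcdhga4 at the rising end, and replicate libraries mostly lie on top of each other.

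Protocadherins outside the clusters showed the widest range. Pcdh10 (chr3:45378398-45435623, plus strand), an adhesion molecule of developing neural circuits, measured 51.6 and 54.1 CPM in control cells and 0.627 and 0.591 CPM in shPCBP1 cells, a log2 difference of -6.22 (SE 0.08, adjusted p = 6.9e-13). Pcdh17 (chr14:84443563-84539002, plus strand), a synaptic protocadherin of the same subfamily, was at 1 read (0.0178 CPM) in control library 1, at none in control library 2, and at 2.13 and 2.27 CPM in the shPCBP1 libraries. Pcdh9 was likewise at 1 read in each control library and at 0.968 and 1.16 CPM after knockdown. The fitted log2 differences of 4.41 for Pcdh17 and 3.30 for Pcdh9 depend on the 0.1 CPM added before taking logs and are no measure of fold. Pcdh1, known from airway epithelium, rose from 55.1 and 55.2 CPM to 110.5 and 110.9 CPM (log2 difference 1.00, SE 0.03, adjusted p = 4.8e-11). Pcdh7 rose from 8.83 and 9.87 CPM to 40.1 and 38.6 CPM (log2 difference 2.06, SE 0.06, adjusted p = 1.1e-10). The fall of Pcdh10 and the gains of Pcdh1 and Pcdh7 left the sum over the 8 genes higher, at 115.8 and 119.4 CPM in control cells and 154.6 and 153.6 CPM in shPCBP1 cells.

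The protocadherin clusters were expressed at low levels, apart from Pcdhgc3, the broadly expressed C-type gamma gene, at 13.9 and 11.98 CPM in control cells and 35.8 and 35.2 CPM in shPCBP1 cells (log2 difference 1.45, SE 0.06, adjusted p = 2.8e-09). The neighbouring C-type gene Pcdhgc4 moved down, from 1.39 and 3.06 CPM to 0.342 and 0.531 CPM (log2 difference -2.04, SE 0.30, adjusted p = 8.7e-05). Summed over the 18 beta genes the level was 1.33 and 1.23 CPM in control cells and 4.30 and 4.34 CPM in shPCBP1 cells. Summed over the 18 A- and B-type gamma genes it was 1.84 and 1.95 CPM in control cells and 8.01 and 7.85 CPM in shPCBP1 cells. For 12 of 18 beta and 13 of 18 A- and B-type gamma genes both shPCBP1 libraries lay above both controls, and for 2 beta genes and 1 gamma gene both lay below. Of all 15023 genes listed, 43.4% lay above in this way and 38.3% below. Some of these orders are between equal read numbers. Pcdhb3, counted above, was at 1 read in control library 1 (0.0178 CPM) and in shPCBP1 library 2 (0.0186 CPM). For Pcdhb7, also counted above, the nearest libraries stood at 0.0886 and 0.0897 CPM. Pcdhb10, counted below, was at 1 read in control library 2 (0.0190 CPM) and in both shPCBP1 libraries. The 3 alpha genes had no reads in the control libraries and summed to 0.494 and 0.615 CPM in the shPCBP1 libraries, nearly all of it Pcdhac2 at 0.402 and 0.517 CPM. Of the clusters, Pcdhb17, Pcdhb22, Pcdhga4, Pcdhgb2, Pcdhgb6, Pcdhgb7 and Pcdhgc3 rose in the test. All but Pcdhgb7 and Pcdhgc3 reached the filter only through the shPCBP1 group, where they are high, so the filter itself favoured a rise in them. The call for Pcdhgb7 (0.550 and 0.803 CPM against 1.01 and 1.39 CPM, log2 difference 0.74, adjusted p = 0.0063) was lost without shPCBP1 replicate 2 (adjusted p = 0.133), and the log2 difference of Pcdhgb2 was 2.56 without control replicate 1 and 1.40 without control replicate 2.

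Values of single gamma genes are uncertain. All 21 overlap another gamma gene on the same strand, through the constant exons, and only 35.4% of their low values in this dataset (23.1% in the first) were whole multiples of 1 read within a tolerance of 0.1 of a read, against 97.1% (94.7%) for other members. Values that are not whole arise where reads are divided among genes, so the sums over the cluster are the firmer values. Of the 10 beta genes listed in the first dataset, Pcdhb21 and Pcdhb22 overlap each other.

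Sorted by level per kilobase, the control cells held Cdh1, Fat1 (24.5 CPM per kilobase), Cdh16 (19.6), Cdh6 (14.1) and Cdh17 (14.0) at the top, the last pair overlapping in their libraries, followed by Dsg2 (8.30), Celsr1 (7.34), Pcdh1 (6.27), Pcdh10 (3.33) and Cdh2 (2.69). In shPCBP1 cells Cdh1 was followed by Fat1 (30.1), Cdh6 (19.4), Pcdh1 (12.6), Dsg2 (10.7), Celsr1 (8.42), Cdh17 (7.34), Cdh2 (7.21), Pcdhgc3 (6.45) and Pcdh7 (3.71 CPM per kilobase), Cdh17 and Cdh2 overlapping. Cdh16 and Pcdh10 had left the first 10, and Pcdhgc3 and Pcdh7 had entered. The sum over all members changed little, from 1210 and 1224 CPM to 1283 and 1292 CPM.

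Genes that act with cadherins were read from the same fit, beside its 80.1% of all genes passing. Of 8 tested repressors of cadherin genes, 6 rose: Snai1 by 3.33, Snai2 by 1.93, Snai3 by 0.23, Twist2 by 4.47, Zeb1 by 0.44 and Zeb2 by 1.54 on the log2 scale. Tcf4, a basic helix-loop-helix factor, fell by 0.87. Of 13 catenin and plaque genes, 9 fell, among them Ctnnb1 (beta-catenin) by 0.58, Ctnna1 (alpha-catenin) by 0.28, Ctnnd1 (p120-catenin) by 0.42 and the desmosomal linker Dsp (desmoplakin) by 1.07, while Jup, Pkp1 and Vcl rose. Of 7 activators of epithelial genes 3 rose, Foxa1 by 2.34, Klf4 by 0.71 and Grhl1 by an amount between these. Another 3 fell (Cebpa by 1.86, Ehf by 1.90 and Elf3 by 0.95). Of 10 planar polarity genes and Fat partners 5 rose, Prickle1 by 5.88 and Vangl2 by 4.95 among them, and 4 fell. Of 13 genes for cohesin, its partners and DNA methylation, which act on the protocadherin clusters, 3 rose, the methyltransferase Dnmt3b by 1.36 among them, and 7 fell, the cohesin subunit Smc3 by 0.62 among them. Of the nectins, Nectin1 rose and Nectin3 fell. Of 5 epithelial markers, Krt18 rose by 0.08 and 4 fell, Krt7 by 3.49 and Ocln by 1.20 among them. Neural markers summed to 2.07 to 5.32 CPM and immune markers to 2.79 to 4.68 CPM over the 4 libraries, with 2 of 3 tested rising in each list, and their part in the results was not tested. No fibroblast or endothelial marker was abundant enough to test.

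The FAM3C KO clones were compared with the shPCBP1 lines to ask what loss of FAM3C changed in cells without PCBP1. The member that differed was Pcdh17, which is among those that rose on PCBP1 knockdown. It stood at 5.46, 7.07 and 11.2 CPM in CT clones 1, 2 and 3 and 3.06 CPM in the unaltered line, and at 0.797, 0.0800 and 0.0769 CPM in FAM3C KO clones 1, 2 and 3, where clones 2 and 3 held 2 reads each. The groups did not overlap, and the fitted log2 difference was -4.33 (SE 0.61, adjusted p = 0.0293). The call was lost on leaving out any CT clone or FAM3C KO clone 2 or 3, with adjusted p from 0.104 to 0.144, and the direction held. Without FAM3C KO clone 1 the log2 difference was -5.11, and with 1 CPM in place of 0.1 CPM added before taking logs it was -2.48 and still passed. Pcdh17 was the 1 member of 45 tested that passed, where 0.309% of 12621 genes did (0.222% lower). The groups did not overlap for 9 of the 45 members, where 22.7% of all genes were separated in this way. The median log2 difference was 0.00 for members and -0.01 for all genes. The 12 members under the filter in the first dataset were Cdh5, Cdh10, Cdh11, Cdhr5, Celsr3, Dsg4, Pcdh19, Pcdhb5, Pcdhga1, Pcdhga2, Pcdhga3 and Pcdhga10. An exact permutation test of a single gene cannot go below p = 0.0571 with 3 clones against 4.

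Of the other 8 separated members none passed the test. Celsr2, which fell on PCBP1 knockdown, stood at 0.128, 0.243, 0.515 and 0.998 CPM in the CT clones and the unaltered line and at 18.8, 2.40 and 7.26 CPM in FAM3C KO clones 1, 2 and 3. Every FAM3C KO clone was above every shPCBP1 line, over a wide spread (log2 difference 3.87, SE 1.15, adjusted p = 0.239). The summed neural markers stood at 7.11 to 17.9 CPM in the shPCBP1 lines, 29.4, 15.2 and 32.3 CPM in FAM3C KO clones 1, 2 and 3, 9.76, 6.03 and 36.0 CPM in LIFR KO clones 1, 2 and 3 and 27.0 CPM in the double KO. Of that list 5 of 10 were in this dataset, and Tubb3, Rbfox3, Snap25, Syt1 and Stmn2 were not listed in it. Most of the sum was Map2 where it was high. Their part in the Celsr2 values was not tested. Fat4 went the other way, with 13.0, 1.37, 1.34 and 2.07 CPM in the shPCBP1 lines, the high value in CT clone 1, and 0.177, 0.280 and 0.115 CPM in the FAM3C KO clones (log2 difference -3.30, SE 1.01, adjusted p = 0.251). Pcdh10 stood at 1.92, 0.647, 0.653 and 2.08 CPM against 0.399, 0.240 and 0.115 CPM (log2 difference -1.92, adjusted p = 0.567). The LIFR KO clones disagreed among themselves in these 3 genes and entered the shared estimate of spread. With those clones left out of the fit all 3 passed, at adjusted p of 0.0220 for Celsr2, 0.0382 for Fat4 and 0.0663 for Pcdh10. That fit called 4 of 45 members, and 8.24% of all genes.

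Cdh1 did not differ detectably, at 345.9, 299.1, 291.9 and 294.9 CPM in the shPCBP1 lines and 326.4, 245.5 and 361.8 CPM in the FAM3C KO clones. Cdh2 was higher in every FAM3C KO clone, with 216.8, 270.9 and 219.7 CPM against 108.7 to 201.3 CPM, but the difference of 0.55 on the log2 scale did not pass (adjusted p = 0.597). Per kilobase, Cdh1 was 1.60 to 2.90 times Cdh2 in the FAM3C KO clones and 2.61 to 4.85 times in the shPCBP1 lines. The remaining separated members were Pcdh7 (log2 difference 0.85), Pcdhb21 (0.94), Pcdhgc5 (0.39) and Pcdhgb1 (-0.95), with adjusted p from 0.343 to 0.393. No gene of the adhesion lists passed in this comparison, over 15 catenin and plaque genes, 9 repressors, 9 activators, 11 polarity genes, 13 regulators of the clusters and 4 nectins, and none of 5 epithelial, 1 fibroblast, 1 endothelial, 2 immune and 4 neural markers did. After a correction of the values for the GC content of each gene, with which 1.89% of all genes passed, Dvl1 and Nectin2 were higher by 0.93 and 0.82 on the log2 scale (adjusted p = 0.0485 and 0.0293) and Grhl1 was lower (log2 difference -0.78, adjusted p = 0.0452).

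The comparison of LIFR KO clones with the same shPCBP1 lines asked the corresponding question for LIFR. Before its results, a property of the libraries has to be stated. The deviation of a gene from its mean over the shPCBP1 lines, which enter that mean themselves, was set against its GC content. Spearman rho over 12603 genes was -0.286 to 0.240 in most libraries. It was -0.757 in LIFR KO clone 2, -0.744 in clone 3 and -0.702 in the double KO. GC-rich genes were thus low in those 3 libraries, and each call is given below with a fit on values corrected for GC content, in which 0.309% of genes passed. The epithelial markers also stood lower, at a summed 960 to 1767 CPM in the LIFR KO clones and 2134 to 2886 CPM in the shPCBP1 lines, and Krt18 fell by 0.72 (adjusted p = 0.0663), or by 0.22 without passing after the GC correction (adjusted p = 0.539). The part of these markers in the results was not tested.

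Celsr1, Pcdh17 and Pcdhgb7 were lower in LIFR KO clones. These 3 of 45 members passed, 6.67%, where 6.47% of all genes passed, 5.55% lower. The share is that of the background. Groups did not overlap for 7 of the 45 members, against 17.2% of all genes, and the median log2 difference was -0.24 for members and -0.16 for all genes. Median-ratio rescaling moved these medians to -0.10 and -0.01, and the share of higher genes among all calls from 14.09% to 36.89%. Celsr1, which sets planar polarity in epithelia, stood at 191.3, 218.6, 202.9 and 206.1 CPM in the shPCBP1 lines and at 126.0, 72.7 and 117.9 CPM in LIFR KO clones 1, 2 and 3. The groups were apart by 0.99 on the log2 scale, lower in LIFR KO (log2 difference -0.99, SE 0.20, adjusted p = 0.0388). With the GC correction the difference was -0.38 and did not pass (adjusted p = 0.268), and in clone 1, whose library showed no such relation to GC content, the level was also below every shPCBP1 line (log2 difference -0.70, adjusted p = 0.158 with clone 1 as the only LIFR KO library). Leaving out any shPCBP1 line or LIFR KO clone 2 took the call away as well, with adjusted p from 0.0748 to 0.124.

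Pcdh17 measured 0.751, 0.624 and 1.37 CPM in LIFR KO clones 1, 2 and 3, all below the 3.06 to 11.2 CPM of the shPCBP1 lines (log2 difference -2.67, SE 0.61, adjusted p = 0.0483). After GC correction the log2 difference was -2.69 (adjusted p = 0.0969), and with clone 1 alone it was -2.85 (adjusted p = 0.218). Leaving out any shPCBP1 line, FAM3C KO clone 3 or LIFR KO clone 2 gave adjusted p from 0.0719 to 0.196. With the GC correction or clone 1 alone the size of the difference therefore moved little, while the call did not hold. That size depends on the 0.1 CPM added before taking logs. Pcdhgb7, a gamma gene whose own level is uncertain as stated, stood at 1.47, 1.60 and 1.07 CPM against 2.16 to 3.04 CPM (log2 difference -0.83, adjusted p = 0.0570). Its call was lost with the GC correction (-0.48, adjusted p = 0.280), with median-ratio rescaling (-0.69, adjusted p = 0.0833) and in 9 of the 10 fits that left out a library.

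Fat2, at 1.45, 2.45 and 5.36 CPM against 5.78 to 12.2 CPM, and Pcdh1, at 66.0, 47.2 and 64.2 CPM against 74.9 to 102.2 CPM, were lower in every LIFR KO clone without passing (log2 differences -1.39 and -0.56, adjusted p = 0.0997 and 0.110). With the GC correction the Pcdh1 difference changed sign. Celsr2 stood at 0.322 and 0.125 CPM in LIFR KO clones 1 and 2, within the range of the shPCBP1 lines, and at 8.36 CPM in clone 3. Pcdh10 was uneven too, with 0.0536 CPM (1 read) in clone 1 and 3.95 and 3.35 CPM in clones 2 and 3. Cdh1, at 344.2, 267.6 and 289.4 CPM, lay within or near the shPCBP1 range, and Cdh2 ran from 147.9 to 345.5 CPM. Of the lists, the activator Klf4 was lower by 1.19 (log2 difference -1.19, adjusted p = 0.0236) and the cohesin gene Smc3 higher by 0.56 (adjusted p = 0.0488). Neither passed after the GC correction (log2 differences -0.76 and 0.38, adjusted p = 0.118 and 0.190), and no catenin, plaque, repressor, polarity or nectin gene passed. Besides Krt18, no marker passed.

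**Figure D2:**
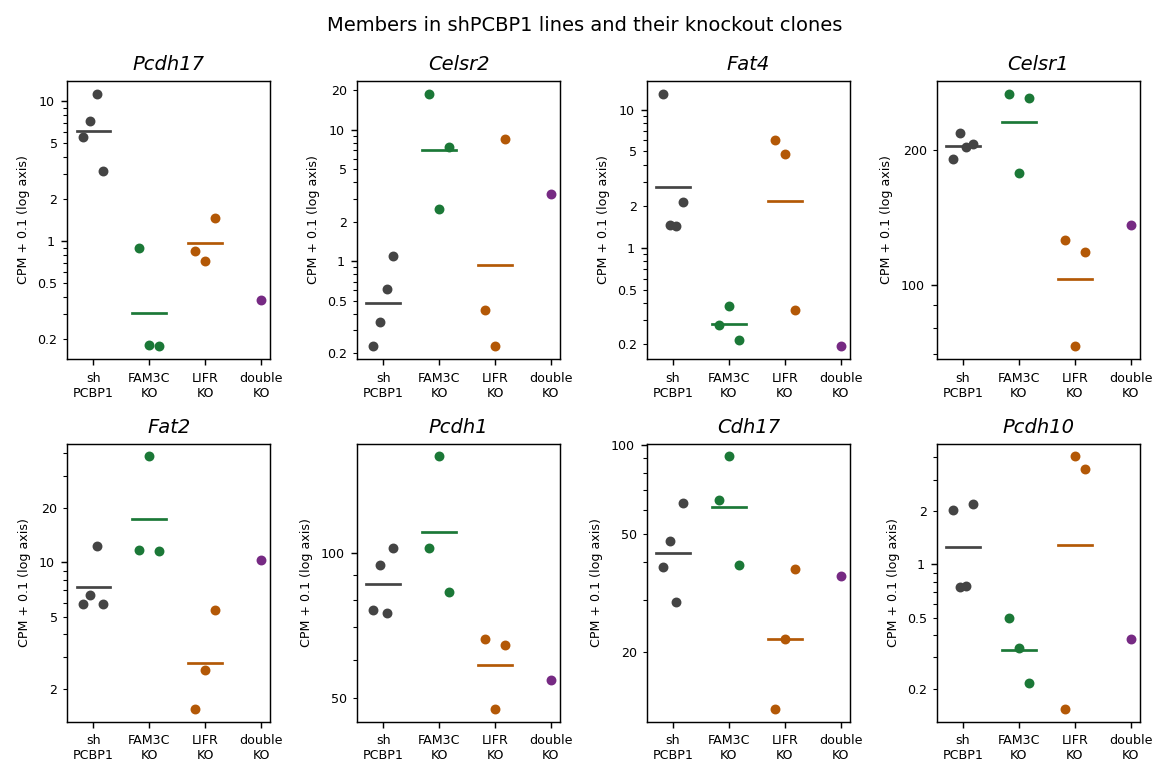
CPM + 0.1 on a log axis for Pcdh17, Celsr2, Fat4, Celsr1, Fat2, Pcdh1, Cdh17 and Pcdh10 in the libraries of the first dataset, with points for libraries and a line for the geometric mean of CPM + 0.1. Pcdh17 is below the 4 shPCBP1 lines in all 7 knockout lines, whereas Celsr2 and Pcdh10 are split among the LIFR KO clones.

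FAM3C KO and LIFR KO clones were then compared directly. Celsr1, Fat2, Pcdh1 and Cdh17 were higher in FAM3C KO than in LIFR KO clones, 4 of 45 members or 8.89%, where 8.28% of all genes passed and 6.83% were higher. Groups did not overlap for 10 of the 45 members, against 22.8% of all genes, and the medians were 0.27 for members and 0.14 for all genes. Rescaled by median ratios they were 0.14 and 0.01, and the share of higher genes among all calls was 63.2% in place of 82.49%. Celsr1 stood at 267.2, 177.2 and 260.7 CPM in FAM3C KO clones 1, 2 and 3 and at 126.0, 72.7 and 117.9 CPM in the LIFR KO clones (log2 difference 1.17, SE 0.21, adjusted p = 0.0354). Fat2 stood at 11.7, 38.4 and 11.5 CPM against 1.45, 2.45 and 5.36 CPM (log2 difference 2.64, SE 0.55, adjusted p = 0.0387). Pcdh1 measured 102.3, 159.0 and 82.8 CPM against 66.0, 47.2 and 64.2 CPM (log2 difference 0.92, SE 0.23, adjusted p = 0.0524). Cdh17 measured 64.7, 91.1 and 39.2 CPM against 12.7, 22.04 and 38.0 CPM, where the nearest clones of the groups almost met (log2 difference 1.48, SE 0.42, adjusted p = 0.0673). FAM3C KO clone 2 held the highest value of Fat2, Pcdh1 and Cdh17 and the lowest FAM3C KO value of Celsr1. After GC correction none of the 4 passed (log2 differences 0.59, 2.35, 0.25 and 1.51 for Celsr1, Fat2, Pcdh1 and Cdh17, adjusted p from 0.0984 to 0.626). An exact permutation test of 3 against 3 clones cannot go below p = 0.10. Of the lists, Klf4 (0.98), Dvl1 (1.15), Dnmt3a (0.69), Nectin2 (0.88) and the marker Krt18 (0.86) were higher in FAM3C KO clones on the log2 scale and Smc3 (-0.65) lower, with adjusted p from 0.0366 to 0.0531, and none of these 6 passed after the GC correction (adjusted p from 0.110 to 0.255).

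The beta protocadherins divided by clone. The A- and B-type gamma sums were lower in every LIFR KO clone, and in FAM3C KO clone 3, than in every shPCBP1 line. Over all gamma genes LIFR KO clone 1, at 73.0 CPM, lay within the 66.6 to 84.3 CPM of the shPCBP1 lines. Summed beta genes stood at 7.35 to 11.4 CPM in the shPCBP1 lines, 9.52, 16.4 and 6.84 CPM in FAM3C KO clones 1, 2 and 3, and 19.9, 18.3 and 8.19 CPM in LIFR KO clones 1, 2 and 3. In each of LIFR KO clones 1 and 2, 8 of the 10 beta genes were above all 4 shPCBP1 lines, in FAM3C KO clones 1 and 2 it was 3 and 7, and in clone 3 of either group 1. Of all 13893 genes listed, 21.6%, 25.1% and 27.2% were above all 4 lines in LIFR KO clones 1, 2 and 3, and 24.1% to 24.5% in the FAM3C KO clones. Summed A- and B-type gamma genes stood at 21.3 to 28.8 CPM in the shPCBP1 lines and at 18.8, 14.8 and 15.2 CPM in LIFR KO clones 1, 2 and 3, with 22.5, 30.2 and 18.6 CPM in the FAM3C KO clones. Below all 4 shPCBP1 lines were 5, 10 and 10 of the 18 gamma genes in the LIFR KO clones, 3, 1 and 6 in the FAM3C KO clones and 11 in the double KO. Of all genes listed, 27.8%, 51.6% and 49.9% were below all 4 lines in the LIFR KO clones, 25.4%, 33.6% and 27.1% in the FAM3C KO clones and 51.8% in the double KO. The beta genes have a median GC content of 43.7% and the gamma genes 52.9%, beside 49.7% for all genes tested, and the libraries with many low gamma genes include the 3 in which GC-rich genes were low. In LIFR KO clone 1, which was not one of those, the beta sum was the highest of the dataset. The fit with the GC correction covers single genes, and the part of GC content in the beta and gamma sums was not tested.

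**Figure D3:**
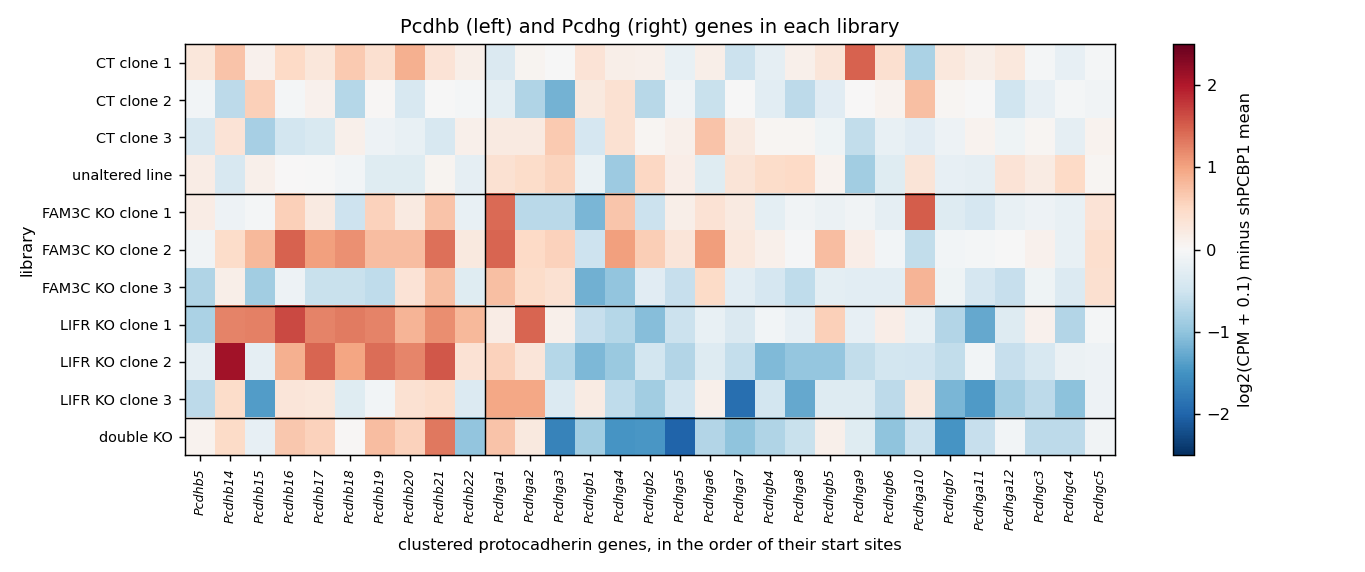
Heat map of the beta and gamma protocadherin genes in the libraries of the first dataset, as log2(CPM + 0.1) minus the mean of the 4 shPCBP1 lines, with the colour scale ending at 2.5 in either direction. Most beta genes are raised in LIFR KO clones 1 and 2 and many A- and B-type gamma genes are lowered in LIFR KO clones 2 and 3 and the double KO.

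Within the shPCBP1 lines themselves the members varied by line. CT clone 1 held the highest value of Fat4 (13.0 CPM), Cdh16 (26.7 CPM), Cdh10 (1.19 CPM), Pcdh19 (3.20 CPM) and Pcdhga9 (4.88 CPM), in each case above the other 3 lines. Cdh16 stood at 4.81, 6.25 and 11.6 CPM in CT clones 2 and 3 and the unaltered line, and Pcdh19 at 0.162, 0.137 and 0.811 CPM. Per kilobase, Fat1 (72.0) and Cdh1 (67.3 CPM per kilobase) led the shPCBP1 lines with overlapping ranges, followed by Cdh6 (27.2), Cdh2 (20.4), Celsr1 (18.6) and Dsg2 (13.2). Dsg2 stood at 103.3 to 117.1 CPM in these lines, 82.7 to 140.9 CPM in FAM3C KO clones and 92.3 to 152.7 CPM in LIFR KO clones, so that all groups overlapped. Cdh11, the osteoblast cadherin, stayed between 0.120 and 0.386 CPM and Cdh5 reached at most 0.481 CPM in the other lines and 1.76 CPM in FAM3C KO clone 2. Cdh6 ran from 159.6 to 288.5 CPM in the shPCBP1 lines, 163.8 to 298.5 CPM in FAM3C KO clones and 248.2 to 377.9 CPM in LIFR KO clones, Fat1 from 991.7 to 1249 CPM, 995.8 to 1204 CPM and 938.8 to 1360 CPM, and Pcdhgc3 from 40.4 to 54.0 CPM, 42.9 to 50.1 CPM and 29.8 to 50.2 CPM. None of these 3 passed the limma test in any of the 3 comparisons of these lines.

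**Figure D4:**
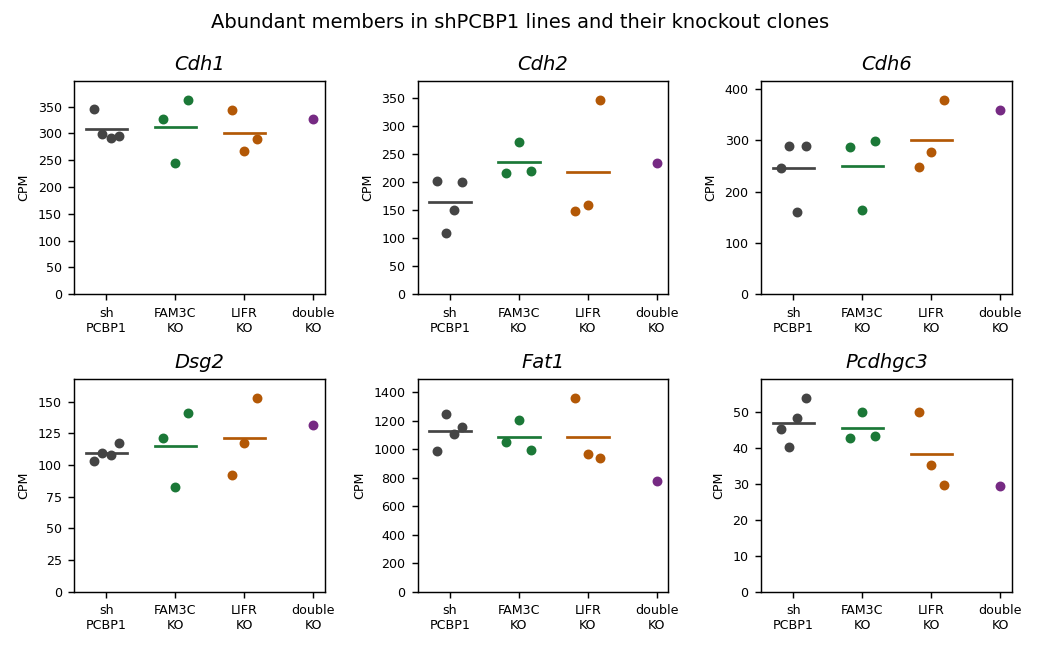
CPM, on axes starting at 0, of the 6 abundant members Cdh1, Cdh2, Cdh6, Dsg2, Fat1 and Pcdhgc3 in every library of the first dataset, with points for libraries and a line for the group mean. The shPCBP1, FAM3C KO and LIFR KO groups overlap in each panel except for Cdh2, where the 3 FAM3C KO clones lie above the 4 shPCBP1 lines.

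Members that changed at least 1.5-fold on PCBP1 knockdown were set beside their direction in the knockouts, which share no sample with that dataset. Of 14 that had risen, 8 (57.1%) had a lower mean in FAM3C KO clones and 11 (78.6%) in LIFR KO clones, beside 56.4% and 74.9% of all genes that had risen. Of 6 that had fallen, 3 (50.0%) were higher in FAM3C KO and 2 (33.3%) in LIFR KO clones, beside 54.3% and 39.9% of all genes that had fallen. These shares are a description and lie near those of all genes. Those with no overlap between groups were Pcdh17 and Celsr2 for FAM3C KO and Fat2, Pcdh1, Pcdh17 and Pcdhgb7 for LIFR KO. The LIFR KO difference of Pcdh1 changed sign with the GC correction. Of all genes that had risen, 14.4% for FAM3C KO and 19.2% for LIFR KO were lower without overlap, and of all that had fallen 15.4% and 5.71% were higher without overlap. In the double KO line, a single library with no test, Pcdh17 stood at 0.281 CPM, Celsr2 at 3.14 CPM, Fat4 at 0.0937 CPM, Pcdh10 at 0.281 CPM, Celsr1 at 135.8 CPM, Fat2 at 10.2 CPM, Cdh1 at 327.8 CPM and Cdh2 at 233.6 CPM.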

How the data were processed

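Total RNA from 15 samples was depleted of ribosomal RNA and made into directional libraries read as 150-base pairs. Per the paper's methods and the submitters' processing notes, the authors trimmed the reads, aligned them to GRCm38 with Bowtie2 in Partek Flow and ran the DESeq2 applet, and they deposited CPM per gene in 1 table per dataset. Columns of the authors' own comparisons (fold changes and p-values) were not used. Gene coordinates are those of GENCODE M21 on GRCm38, whose start positions equal those of the second table for 14269 of 14795 genes but those of the first for only 302 of 13870. The annotation release behind the first table is not given in the sources used here, so its levels per kilobase and gene overlaps rest on M21 lengths and spans.

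Each dataset was fitted apart with limma 3.58.1 (R 4.3.3) with a mean-variance trend on log2(CPM + 0.1), restricted to genes whose mean reached 0.5 CPM, and adjusted by Benjamini-Hochberg over all genes tested, with a threshold of 0.07. A fold change on this scale understates that of low genes. The first dataset was fitted over 3 groups, without the double KO. Counts were not recovered: 90.5% to 92.7% of low values in the first dataset and 93.8% to 94.4% in the second were whole multiples of the smallest step within 0.1, so no count test was run. The worth of 3 reads was 0.0531 to 0.0566 CPM in the second dataset and 0.064 to 0.187 CPM in the first, which covers counting error only. Exact permutation tests were two-sided. Alternatives were another offset, other filters and thresholds, median-ratio rescaling, a GC correction by loess (span 0.3), a replicate block, a fit of only the groups compared, and leaving out each library.

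The members and gene lists were chosen with earlier results of these data known. A list of cadherin-shedding genes is not reported here. The genes named are the most abundant of each class, 9 set by name (Cdh1, Cdh2, Cdh3, Cdh11, Dsg2, Dsc2, Fat1, Celsr2 and Pcdh1), in each comparison up to 8 in each direction with the largest changes among those that passed without overlap at 1 CPM or more, and others given as values. Figures were drawn with matplotlib 3.10.9.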

Additional observations from a re-analysis of the deposited data

Results flagged for a closer look

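In the 21 members examined over the 4 shPCBP1 lines, the gap of the farthest line divided by the whole range exceeded the critical value for 4 samples in Cdh1, where CT clone 1 stood at 345.9 CPM (gap 0.855 of the range), and in Fat2, where CT clone 3 stood at 12.2 CPM (0.841). Chance alone gives about 1 such group in 20.

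The effects of the FAM3C and LIFR knockouts against the same shPCBP1 lines differed by the limma test of the difference in Cdh17 (FAM3C KO minus LIFR KO 1.48 on the log2 scale, adjusted p = 0.0673), Celsr1 (1.17, adjusted p = 0.0354), Fat2 (2.64, adjusted p = 0.0387) and Pcdh1 (0.92, adjusted p = 0.0524). Of all genes 8.28% passed the same test. No member passed after the GC correction or in a fit of only the groups compared.

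The double KO library, which entered no fit, was above all 4 shPCBP1 lines in Cdh2 (233.6 CPM against at most 201.3), Cdh6 (359.9 against 288.5), Celsr2 (3.14 against 0.998), Dsg2 (131.3 against 117.1), Pcdh7 (92.1 against 91.2), Pcdhb16 (2.16 against 1.90) and Pcdhb21 (1.48 against 0.705 CPM). It was below all 4 lines in Celsr1 (135.8 against at least 191.3 CPM), Fat1 (780.4 against 991.7), Pcdh1 (54.2 against 74.9), Pcdhgc3 (29.6 against 40.4), Pcdh17, Fat4, Pcdh10, Pcdhga5, Pcdhgb1 and Pcdhgb7 among the same named members. Of the 57 members listed 12 were above and 25 below, 21.1% and 43.9%, where 25.4% and 51.8% of all genes were.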

How the results depend on the processing

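Of 635 comparisons of a named member under settings other than leaving out a library, 568 kept direction and side of the threshold, 37 lost the call, 5 gained one and 25 changed sign, the last among members that had not passed; for shPCBP1 against control cells 163 kept both and 4 lost the call. The cause of each change was not tested. Adding 1 CPM before taking logs shrank the differences of low members, to -5.06 for Pcdh10 and -4.13 for Celsr2 on PCBP1 knockdown, as its construction implies. Counts of members that passed changed as follows, with the number of all genes in brackets. For FAM3C KO (1 member, 39 genes) the replicate block gave 0 [15] and the fit of only the 2 groups 4 [1040]. For LIFR KO (3 members, 816 genes) the replicate block gave 0 [10], only the 2 groups 0 [34], the GC correction 0 [39], LIFR KO clone 1 alone 0 [280], adjusted p under 0.05 2 [359] and median-ratio rescaling 2 [488]. For FAM3C KO against LIFR KO (4 members, 1045 genes) adjusted p under 0.05 gave 2 [587], median-ratio rescaling 2 [807], the replicate block and only the 2 groups 0 [0 each], and the GC correction 0 [70]. For shPCBP1 against control cells (24 members, 9123 genes) no filter gave 50 [10365]. Leaving out each library in turn gave 0 to 3, 0 to 12, 0 to 12 and 23 to 25 in these comparisons, with 12 when LIFR KO clone 1 was left out and only the clones with low GC-rich genes remained (57.3% of all genes for LIFR KO and 52.9% between the knockouts), and with 3 for FAM3C KO without LIFR KO clone 3 (2.8% of all genes). In FAM3C KO against LIFR KO, Celsr1 lost its call without FAM3C KO clone 1 or 3, Fat2 without any FAM3C KO clone or LIFR KO clone 2, and Pcdh1 and Cdh17 in 8 of 10 such fits.

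Shared replicate numbers did not pair the samples (correlations of same-numbered deviations -0.26 to 0.18 among clones and 0.07 between PCBP1 knockdown and control); the replicate block gave 24 members for shPCBP1 against control cells, and Pcdh17 -4.65 (adjusted p = 0.0818) for FAM3C KO.

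Signs changed as follows on the log2 scale. In FAM3C KO, Cdh1 was -0.019 and Pcdhgc3 0.027 with the replicate block, and Cdh6 -0.011 and Pcdhgc3 0.0004 with the GC correction. In LIFR KO under median-ratio rescaling, GC correction and clone 1 alone, Cdh1 was 0.11, 0.22 and 0.16 and Fat1 0.086, 0.22 and 0.28. With clone 1 alone Cdh2 was -0.11, Dsg2 -0.24, Celsr2 -0.18 and Pcdhgc3 0.10, and with the GC correction Pcdh1 was 0.15 and Pcdhgc3 0.15. In FAM3C KO against LIFR KO, Cdh1 was -0.092, -0.17 and -0.16 and Fat1 -0.12, -0.23 and -0.33 under the same 3 settings, Dsg2 0.28 with clone 1 alone, and Pcdhgc3 -0.15 with the GC correction and -0.15 with clone 1 alone. Leaving out libraries gave, in FAM3C KO, Cdh1 -0.12 to 0.16, Dsg2 -0.13 to 0.26, Fat1 -0.13 to 0.0056, Cdh6 -0.18 to 0.29 and Pcdhgc3 -0.11 to 0.027; in LIFR KO, Cdh1 -0.14 to 0.039, Cdh2 -0.064 to 0.55, Dsg2 -0.070 to 0.29, Fat1 -0.24 to 0.030 and Celsr2 -0.64 to 1.98; and between the knockouts, Cdh1 -0.078 to 0.20, Dsg2 -0.26 to 0.14, Fat1 -0.084 to 0.18 and Pcdhb16 -0.70 to 0.10. Depth limits the members under about 0.1 CPM, where values are a few reads.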
